A study of Mus musculus with 4 samples.

Results

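Conventional type 1 dendritic cells (cDC1) were looked for among the single cells of MC38 tumors, and 161 of 31143 cell barcodes were chosen for them. A barcode was chosen if it held more than 500 detected genes, at least 1 UMI (unique molecular identifier, 1 counted RNA molecule) of Xcr1 or Clec9a, at least 5 UMIs of the MHC class II genes H2-Ab1 and Cd74 together, and 0 UMIs of Ccr7, C1qa, C1qb, C1qc, Cd3d, Cd3e, Cd3g, Cd79a and Hmga2. These absent genes mark mature dendritic cells, macrophages, T cells, B cells and MC38 tumor cells. The chosen cells numbered 40, 69, 21 and 31 in the libraries WT IgG, WT treated with anti-PD1, A159V IgG and A159V treated with anti-PD1, and sets of 4 values below follow this order. Because the values of these 13 genes chose the cells, no finding rests on them.

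MC38 is a mouse colon adenocarcinoma cell line. WT tumors were grown from MC38 cells with wild-type RAC1, and A159V tumors from MC38 cells that carry the RAC1 A159V substitution, put into the endogenous Rac1 gene by CRISPR-Cas9 and homozygous in the cells used. Both were placed under the skin of C57BL/6 mice, which were given an IgG isotype antibody or an antibody against the T cell checkpoint receptor PD1, and all tumors were taken on the same day. CD45+ and CD45− cells were parted with beads and mixed again at a set ratio before 10x Genomics 3′ single-cell libraries were made, 1 library for each of the 4 groups. The mutant line was 1 clone, so the mutation and that clone cannot be told apart. The mutation was in the tumor cells only: the dendritic cells came from the host mice and carried wild-type Rac1 in every group, and the number of mice behind a library is not given in the sources used here. The comparisons ask whether the cDC1 of mutant tumors differ from those of WT tumors, and how anti-PD1 treatment bears on them in each genotype. With 1 library per group no test between groups was possible, and the 95% intervals below cover counting error only, not the spread between mice. Those of levels and log2 ratios take each UMI as independent. They leave out the spread between cells as well and are too narrow for it.

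cDC1 are a lineage of dendritic cells that depends on the transcription factors IRF8 and BATF3. They take up material from dead cells through receptors such as CLEC9A (DNGR-1), load it on MHC class I molecules in the process called cross-presentation, and prime CD8+ T cells, which meet them through XCR1, the receptor for the chemokine XCL1. In tumors they are rare, and they are known as a source of CXCL9 and of IL-12 and as cells that tumor control by checkpoint antibodies often depends on.

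The libraries held 7802, 7430, 8685 and 9311 barcodes and 93030164, 54402632, 113779013 and 125227747 UMIs. The WT anti-PD1 library stood apart: 99 barcodes met a tumor cell gate there against 726 to 1384 in the others, 1435 a stromal gate against 197 to 356, and 232 a Ly6c2 monocyte gate against 1049 to 1326. The chosen cells were also deepest in that library, with median UMIs of 4983.5, 7980, 4501 and 4810, while the Cd209a dendritic gate had 4814, 7821, 2866 and 4563. Libraries shared 12 to 18 barcodes in pairs, none of them a chosen cell, and 2, 5, 3 and 2 chosen cells were predicted doublets and were kept. The 3 comparisons are the genotype comparison under IgG (A159V IgG over WT IgG), and anti-PD1 over IgG within WT and within A159V tumors. Over all genes tested in the chosen cells, the median log2 ratio was 0.09, 0.25 and 0.03 in these comparisons, and 0.06, 0.11 and 0.07 in the core cells defined below. Every result on WT anti-PD1 rests on the library that stands apart, whereas the A159V pair does not involve it.

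The label held for part of the chosen cells. RNA of Xcr1 (ENSMUSG00000060509, chr9:123852315-123862029 on the minus strand, GRCm38) was seen in 76 of them and that of Clec9a (ENSMUSG00000046080, chr6:129408862-129424763 on the plus strand) in 148, and 63 held both. A single UMI of these genes admitted 59 of the 161 cells (22, 16, 7 and 14 by library). Of 8 cDC1 markers that did not enter the choice (Naaa, Tlr3, Itgae, Irf8, Batf3, Cadm1, Wdfy4 and Snx22), at least 3 were detected in 95 of the 102 cells with 2 or more UMIs, but in 20 of the 59 cells with 1. In comparison cells with the same MHC class II requirement, at least 3 of these markers were found in 44 of 262 cells of the Cd209a gate (Cd209a-positive, Xcr1 and Clec9a at 0, the type 2 dendritic cell side) and 4 of 109 of the Ccr7 gate (Ccr7 and Fscn1 present, mature dendritic cells). Each cell was then thinned to 1500 UMIs, so that depth no longer differed. Cells under 1500 UMIs were left out, 2, 3, 0 and 1 of the chosen cells by library. After thinning, the shares with at least 3 markers were 42.1%, 72.7%, 66.7% and 53.3% of the chosen cells. They were at most 3.92% of the Cd209a gate and at most 0.213% of gated T cells. T cells can make Itgae and Irf8, so they are no pure background for the set. Batf3, Cadm1 and Snx22, taken singly, were each found in at most 0.505% of thinned T cells.

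Clustering of the antigen-presenting cells without the 13 genes of the rule gave 16 clusters, and 1 of them, led by Gcsam, Sept3, Ccser1, Snx22 and Itgae, is called the cDC1-like cluster here. It held 117 cells, 94 of them chosen, or 58.4% of all chosen cells. By library these 94 core cells numbered 17, 48, 14 and 15. A further 43 chosen cells (17, 11, 2 and 13) lay in the cluster led by Cd209a, 6 in a cluster led by Siglech and Klk1, genes of plasmacytoid dendritic cells, and 5 in a cluster led by Prl2c2 and Rhox5, genes of MC38 cells. The share of core cells among the chosen was therefore uneven, at 42.5, 69.6, 66.7 and 48.4%. For this reason the results below are given for all chosen cells and again for the core cells. The clusters were built from most other variable genes, interferon and cell cycle genes among them, so the core cells are a description and not an independent sample.

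**Figure D1:**
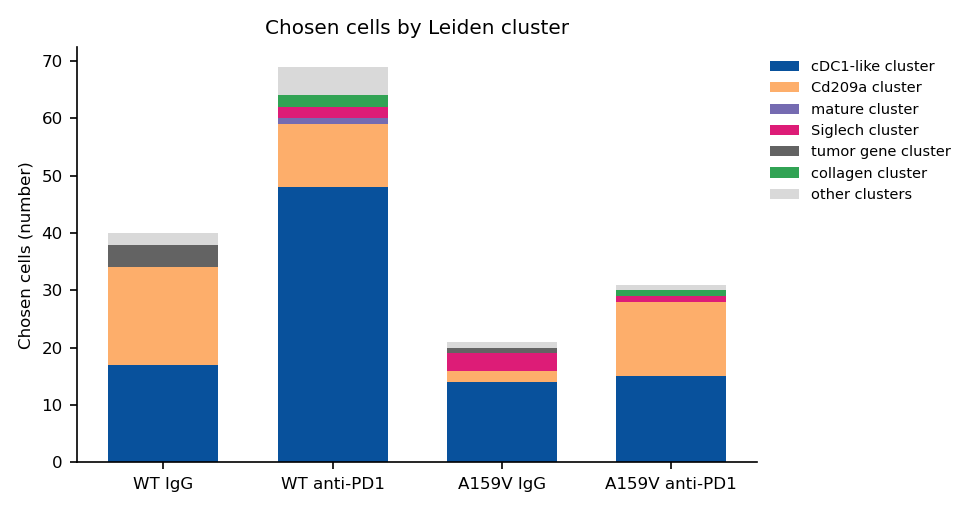
Number of chosen cells in each library (vertical axis, cells), stacked by the Leiden cluster that held them. The cDC1-like cluster held 17, 48, 14 and 15 chosen cells by library, from WT IgG on the left to A159V anti-PD1 on the right, and the cluster led by Cd209a held 17, 11, 2 and 13.

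At the edges of the rule, 4 chosen cells held exactly 5 UMIs of H2-Ab1 and Cd74, and 6 cells with 4 UMIs that met every other condition were left out. Cells left out by C1q UMIs alone numbered 7, 29, 0 and 5, and by Ccr7 alone 3, 4, 0 and 4. Of the cells with Xcr1 or Clec9a, 75 of 383 held no H2-Ab1 or Cd74 at all.

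Most of the genes known to define cDC1 stood above the Cd209a gate in every library, and most also above the Ccr7 gate. Levels are given in CPM, the UMI count of a gene scaled by the total UMIs of the cells summed. Naaa (ENSMUSG00000029413, chr5:92257659-92278170 on the minus strand), a lysosomal amidase and a common cDC1 marker, was at 684, 2275, 1154 and 951 CPM in the chosen cells. In the Cd209a gate it was at 143, 315, 296 and 267 CPM and in the Ccr7 gate at 43.2, 16.8, 13.6 and 18.5 CPM, so the chosen cells of each library lay above every library of both gates. Irf8, the transcription factor that fixes the cDC1 lineage, was at 891, 1782, 1606 and 1139 CPM against 203, 65.6, 94.2 and 177 CPM in the Cd209a gate. In the Ccr7 gate Irf8 was at 731, 653, 787 and 1256 CPM, which overlapped the chosen cells. Cadm1, an adhesion molecule of cDC1, was at 201, 659, 141 and 202 CPM and at most 4.61 CPM in any library of the other gates. Wdfy4, which is needed for cross-presentation of cell-bound antigen, was at 752, 2071, 1114 and 1237 CPM against 116, 331, 188 and 166 CPM in the Cd209a gate.

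Over all genes, 67 of 2034 (3.29%) lay above the Cd209a gate without overlap of the libraries and past 2-fold, and 83 (4.08%) lay below it. Of the 19 genes listed as cDC1 identity genes, 16 were abundant enough to be read here and 14 lay above. Against the Ccr7 gate the shares were 12.4% of 2189 genes above and 12.7% below, and of 17 identity genes 10 lay above and 1 below. The gates share the MHC class II requirement with the rule but differ in Xcr1 and Clec9a, and the gates chose the cells, so this is a description. The genes farthest above the Cd209a gate were Gcsam, Cadm1, Plet1, Tlr3, Ank1 and Itgae, and those farthest below were Clec4n, Ccl9, Clec10a, Clec4a3, Ms4a6d and Sirpa, several of them surface lectins and receptors of type 2 dendritic cells and monocytes. Against the Ccr7 gate, 10 of 11 maturation genes lay below. Il12b, a subunit of IL-12, had 0 UMIs in the chosen cells of all 4 libraries, where a count of 0 allows up to 8.85, 4.83, 30.1 and 19.5 CPM.

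**Figure D2:**
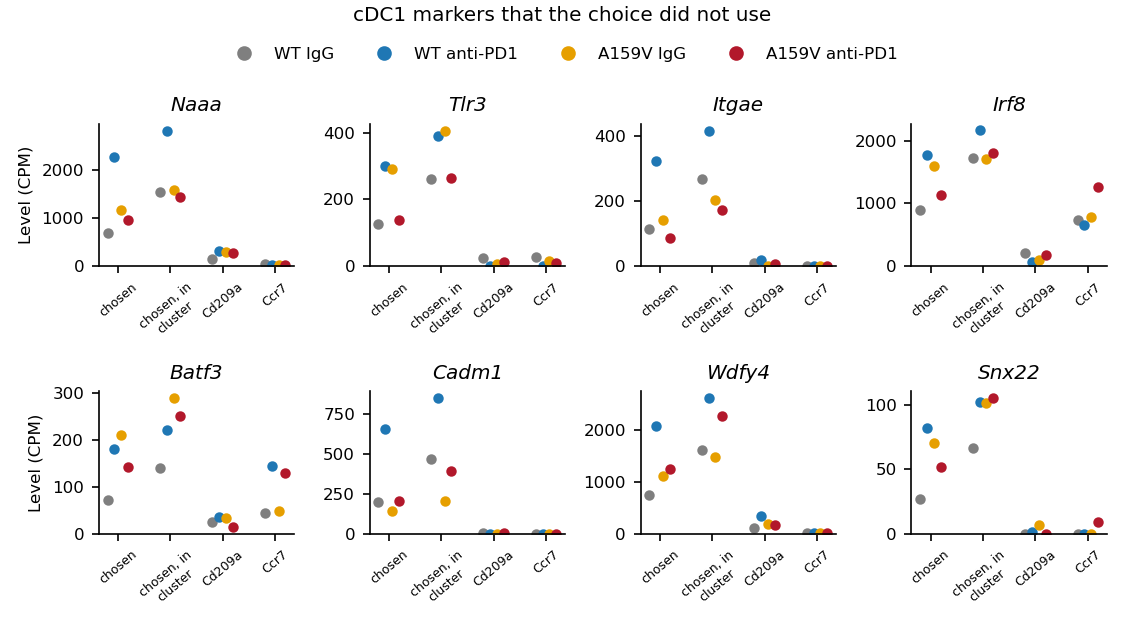
Level (vertical axis, CPM from 0) of the 8 cDC1 markers that did not enter the choice, 1 point per library, in all chosen cells, in the core cells (chosen, in cluster) and in the cells of the Cd209a and Ccr7 gates. Naaa lay between 684 and 2275 CPM in the chosen cells and at or below 315 CPM in the Cd209a gate.

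Among the libraries, the summed level of the lineage genes in all chosen cells was lowest in WT IgG, where the share of core cells was also the lowest, though single genes such as Cadm1 and Itgae were lowest in an A159V library. The summed level of the 19 identity genes was 5317, 12799, 8361 and 7767 CPM in the chosen cells, highest in WT anti-PD1 and lowest in WT IgG. In the core cells it was 10887, 15930.2, 10861 and 12514 CPM, and the log2 ratio for A159V IgG over WT IgG, 0.65 (0.53 to 0.77) in all chosen cells, was 0.00 (−0.13 to 0.12). Irf8 was at 1722, 2169.8, 1713 and 1807 CPM in the core cells, closer together than in all chosen cells. For WT anti-PD1 over WT IgG the ratio of the summed level was 1.27 (1.19 to 1.34) in all chosen cells and 0.55 (0.47 to 0.63) in the core cells. Tlr3, the endosomal receptor for double-stranded RNA, was at 127, 301, 291 and 137 CPM, and Batf3, the partner of IRF8, at 70.8, 182, 211 and 143 CPM. Zbtb46, a transcription factor of conventional dendritic cells, was at 76.7, 325, 50.2 and 169 CPM, and at 156, 404, 58.1 and 277 CPM in the core cells. A159V IgG had the lowest value in both, but from few UMIs. A count of 0 allows up to 30.1 CPM in its chosen cells and 43.6 CPM in its core cells. Flt3, the growth factor receptor that dendritic cells depend on, was at 142, 507, 251 and 313 CPM, lowest in WT IgG.

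Relative to CD45+ cells, chosen cells were most frequent in WT anti-PD1 and scarcer in A159V than in WT tumors. The second difference was not seen by cluster under IgG. In WT IgG the number of chosen cells was 0.839% (0.600 to 1.14) of that of cells with a UMI of Ptprc, the gene for CD45. The bracket is the exact binomial 95% interval. With anti-PD1 in WT tumors the value was 1.59% (1.24 to 2.01). In A159V tumors it was 0.478% (0.296 to 0.730) under IgG and 0.510% (0.347 to 0.723) under anti-PD1. Chosen cells, and the cluster cells below, did not need a Ptprc UMI, so these are ratios of 2 counts. The intervals take 1 count as part of the other and are approximate here. The fold, with its Katz 95% interval, was 0.570 (0.337 to 0.965) for the genotype comparison under IgG. For anti-PD1 over IgG it was 1.90 (1.29 to 2.79) in WT and 1.07 (0.613 to 1.85) in A159V tumors. The A159V IgG value depended on the definition. By the cDC1-like cluster the values were 0.440, 1.31, 0.433 and 0.329% of the number of Ptprc-positive cells. WT IgG and A159V IgG then differed by a fold of 0.983. Among antigen-presenting cells the genotype fold for chosen cells was 1.15 (0.680 to 1.93). The excess in WT anti-PD1 was larger by the cluster, at a fold of 2.98.

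Set against other dendritic cells, the chosen cells were 33.3, 38.3, 22.1 and 22.6% of the chosen, Cd209a and Ccr7 cells together. Folds were 0.663 (0.421 to 1.04), 1.15 (0.840 to 1.57) and 1.02 (0.628 to 1.67) for the 3 comparisons in the same order, and each interval held 1. Cells of the Cd209a gate numbered 51, 77, 49 and 85 and those of the Ccr7 gate 29, 34, 25 and 21. For WT anti-PD1 over WT IgG, the Cd209a gate was also more frequent relative to Ptprc-positive cells, at a fold of 1.66 (1.17 to 2.36). The Ccr7 gate was at 1.29 (0.787 to 2.11). Between the clusters the shift was larger, since the cDC1-like cluster was 6.67, 22.01, 7.28 and 6.02% of the cDC1-like, Cd209a-led and mature clusters.

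**Figure D3:**
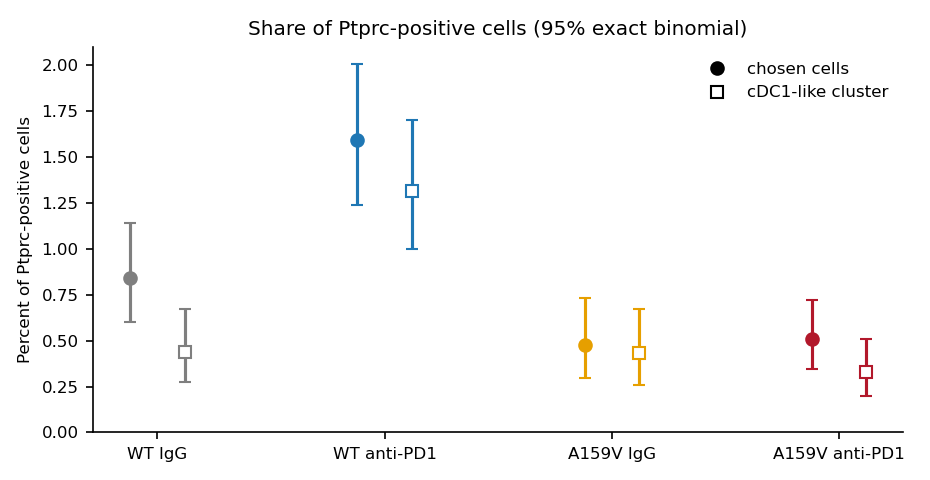
All chosen cells and cells of the cDC1-like cluster in each library, as a percent of the number of Ptprc-positive cells (exact binomial 95% intervals). All chosen cells ranged from 0.478%, in the A159V IgG library, to 1.59%, in WT anti-PD1, and by the cluster WT IgG and A159V IgG lay at 0.440% and 0.433%.

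The genes of MHC class I presentation were near level between the libraries. Class II genes were lowest in WT IgG in all chosen cells, but in WT anti-PD1 in the core cells. The 16 genes of MHC class I presentation had a summed level of 8173, 7458, 8231 and 7793 CPM, and their median log2 ratio was 0.04, 0.03 and −0.07 in the 3 comparisons. B2m, the light chain of MHC class I, was at 1682, 1769, 1455 and 1914 CPM. Of the peptide-loading genes, Tap1, which carries peptides into the endoplasmic reticulum, was at 230.1, 389.6, 251 and 345 CPM. Both genes stayed within 2-fold over the 4 libraries. Psmb10, an immunoproteasome subunit, was at 419, 129, 161 and 149.7 CPM, highest in WT IgG, where a single cell held 33.1% of its UMIs. MHC class II genes other than H2-Ab1 and Cd74, which entered the choice, had a summed level of 11126, 14604, 14082 and 14851 CPM, and in the core cells they were at 16698, 15528, 16756 and 17947 CPM. H2-Aa, a class II chain, was at 4054, 6236, 5039 and 5124 CPM, and Ciita, the master regulator of class II genes, at 124, 359, 161 and 228 CPM. Among cross-presentation genes, Mpeg1, which encodes perforin-2, was at 496, 1322, 833 and 684 CPM, highest in WT anti-PD1. Rab43, a small GTPase tied to cross-presentation, was at 398, 621, 452 and 566 CPM. Cybb, the NADPH oxidase subunit that keeps the phagosome alkaline in dendritic cells, was at 277, 98.2, 80.3 and 267 CPM in all chosen cells. In the core cells Cybb was at 7.42 CPM in WT IgG and at 0 in the other 3 libraries, below what a count of 0 allows, so its RNA lay almost wholly in the chosen cells outside the cDC1-like cluster.

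**Figure D4:**
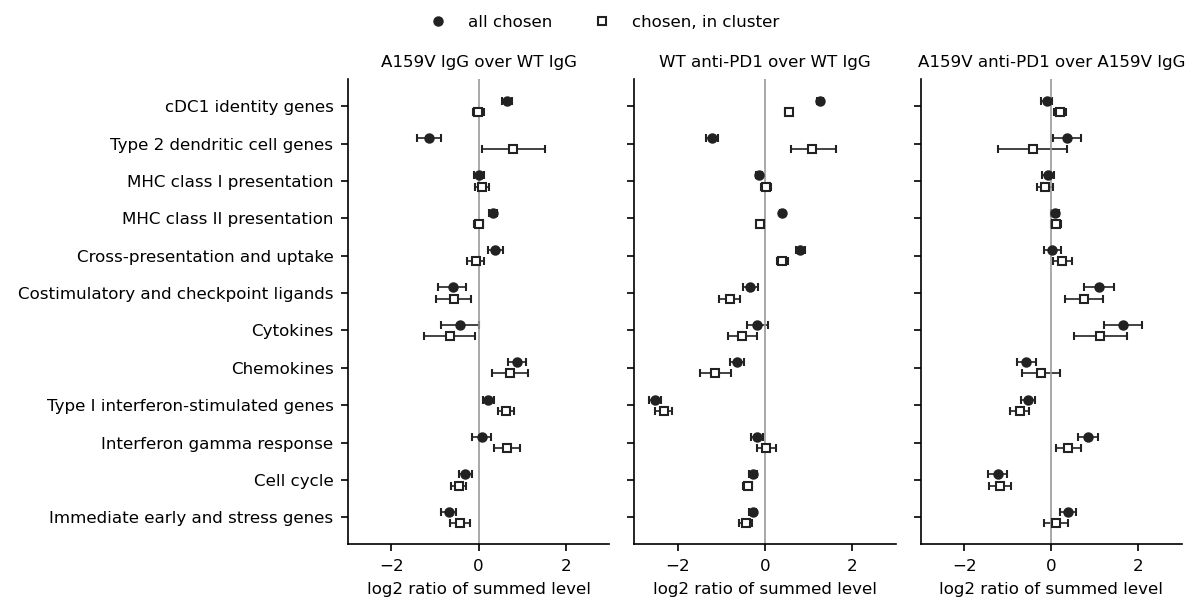
Log2 ratio of the summed level of each gene list in the 3 comparisons (horizontal axis, with exact 95% counting intervals), for all chosen cells (filled circles) and for core cells in the cDC1-like cluster (open squares). Type I interferon-stimulated genes were at −2.53 and −2.32 for anti-PD1 over IgG in WT tumors, cell cycle genes at −1.23 and −1.18 for anti-PD1 over IgG in A159V tumors, and MHC class I genes lay between −0.14 and 0.07.

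Between IgG-treated tumors, the chosen cells of A159V tumors held less RNA of immediate early genes and of costimulatory ligands than those of WT tumors. A log2 ratio here adds 1 CPM to both levels, which understates the change of low genes that have UMIs in both libraries. A gene at 0 is set to 1 CPM, under the 10.04 CPM of 1 UMI in A159V IgG, so its ratio can overstate the change. A gene is read for the 2-fold counts only at 100 CPM or more in 1 of the 2 libraries. It is also left out if it was over 5 times higher in another class of cells. For A159V IgG over WT IgG, 164 of 2043 genes (8.03%) were past 2-fold higher and 150 (7.34%) lower. Of 15 immediate early and stress genes, 14 were lower, and 7 of the 11 that reached the minimum were past 2-fold lower. Their summed level was 5989, 4922, 3714 and 4837 CPM, a log2 ratio of −0.69 (−0.85 to −0.53), and −0.42 (−0.66 to −0.19) in the core cells. The list was lower in the other classes read too, at −0.31 in the Cd209a gate, −0.72 in the Ccr7 gate, −0.14 in macrophages and −0.22 in T cells. Nr4a1, a nuclear receptor induced by cell stimulation, was at 236, 177, 30.1 and 176 CPM, a log2 ratio of −2.93 (95% interval, −5.28 to −1.37), and at 259.7, 91.9, 29.04 and 198 CPM in the core cells. Jun, a subunit of AP-1, was at 614, 174, 100.4 and 189 CPM, a log2 ratio of −2.60 (95% interval, −3.69 to −1.70). Both genes were lowest in A159V IgG, with Nr4a1 in 2 of 21 cells there against 23 of 40 in WT IgG. The 12 type 2 dendritic cell genes were lower in sum, at 2832, 1217, 1285 and 1647 CPM, which in both IgG libraries was mostly S100a4, at 2257, 213, 823 and 801 CPM with 36.5% of the WT IgG UMIs in 1 cell. In the core cells S100a4 was at 29.7, 10.7, 189 and 65.9 CPM. The type 2 list went the other way there, at 275, 586, 479 and 356 CPM in sum. Its log2 ratio was 0.80 (0.08 to 1.52) in the core cells.

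Other genes at the top of this comparison were Rnase6, an antimicrobial ribonuclease, at 148, 248, 532 and 273 CPM, a log2 ratio of 1.84 (95% interval, 1.27 to 2.44), and H2-Q7, a non-classical MHC class I gene, at 142, 80.5, 401 and 143 CPM, which has near-identical neighbours that counting may split. Ccnd1, a cyclin of the G1 phase, was at 330.4, 378, 833 and 521 CPM. For all of these A159V IgG was the highest library, and Rnase6 was found in 19 of 21 cells in A159V IgG and in 20 of 40 in WT IgG. The other named genes at the top were Rabgap1l, Rgs10, Bax, Ly6c2, Jaml, Acadl and Cxcl9. Those at the bottom that were at 0 in A159V IgG were Hist1h2ae, Bex3 and Fgf13. In WT IgG, 1 cell held all UMIs of Fgf13, and 1 cell held 56.9% of those of Bex3 and 19.8% of those of Hist1h2ae. Cxcl9, the chemokine through which cDC1 draw CXCR3-bearing T cells, was at 103, 57.96, 311 and 234 CPM, held by 8, 7, 3 and 3 cells, and 1 cell gave 54.8% of its UMIs in A159V IgG. At the bottom were Ccl5, a chemokine for T cells, at 242, 9.66, 10.04 and 6.51 CPM, the histone gene Hist1h2ap at 481, 43.5, 30.1 and 6.51 CPM, and Spp1, the secreted protein osteopontin, at 1036, 33.8, 130.5 and 182 CPM with 73.5% of its WT IgG UMIs in 1 cell. Cyp7b1, Pcolce and AA467197 completed the lowest genes. Ccl5 was found in 6, 2, 1 and 1 cells, and 1 cell held 48.8% of its WT IgG UMIs. The top WT IgG cell held 49.0% for Cyp7b1, 46.8% for Pcolce, 25.8% for Hist1h2ap and 21.4% for AA467197. Of 19 type I interferon-stimulated genes 7 were higher and 12 lower, with a median log2 ratio of −0.17 in all chosen cells and 0.49 in the core cells. The interferon gamma list had medians of 0.00 and 0.71. By summed level the type I list was higher in A159V IgG, at a log2 ratio of 0.22 (0.09 to 0.35) in all chosen cells and 0.63 (0.45 to 0.81) in the core cells, so its median and its sum differ in sign in all chosen cells. By the same measure the interferon gamma list was at 0.08 (−0.15 to 0.29) and 0.66 (0.36 to 0.96). Cell cycle genes had a median of −0.45, with 13 of 22 lower, and maturation genes of −0.70, with 6 of 8 lower. Costimulatory and checkpoint ligands were lower in 9 of 10, with a summed log2 ratio of −0.60 (−0.93 to −0.28), and −0.57 (−0.98 to −0.18) in the core cells, but none of the 4 that reached 100 CPM was past 2-fold lower. The same list was at 0.16 in the Cd209a gate, 0.14 in the Ccr7 gate, −0.20 in macrophages and 0.00 in T cells.

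In WT tumors, the chosen cells of anti-PD1-treated mice held far less RNA of type I interferon-stimulated genes than those of IgG-treated mice. For WT anti-PD1 over WT IgG, 352 of 2122 genes (16.6%) were past 2-fold higher and 257 (12.1%) lower. With median-of-ratios scaling these counts were 229 higher and 339 lower, so which direction held more genes depended on the scaling. Of the 9 interferon-stimulated genes at the same minimum 8 were past 2-fold lower. Of 19 such genes at 20 CPM or more, 18 were lower and the median log2 ratio was −2.84. Isg15 (ENSMUSG00000035692, chr4:156199424-156200818 on the minus strand), a ubiquitin-like protein, was at 1041, 85.3, 1174 and 892 CPM, a log2 ratio of −3.59 (95% interval, −4.05 to −3.19). Ifit2, which binds viral RNA, was at 292, 14.5, 361 and 130.2 CPM, a log2 ratio of −4.24 (95% interval, −5.50 to −3.35). The WT anti-PD1 library was the low one, and the other 3 libraries lay above it for both genes. Irf7, the factor that amplifies interferon production, was at 407, 86.9, 642 and 456 CPM. Bst2, the gene for tetherin, was at 1157, 233, 1486 and 579 CPM. Ifi27l2a, a small interferon-induced protein of mitochondria, was at 985, 137, 1496 and 1152 CPM. WT anti-PD1 was the lowest library for each of these genes, and the order of the other libraries varied. Irf9, a subunit of the complex that drives them, was at 67.9, 94.995, 50.2 and 52.1 CPM and was the 1 gene of the list that was higher. Stat2, of the same complex, was at 283, 196, 241 and 313 CPM, and neither was past 2-fold. Ifit3 and Ifit3b, and Oasl1 and Oasl2, are close copies between which reads may be split.

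The core cells showed the same. In them the summed level of these genes was 4148, 827, 6418 and 3877 CPM, and the log2 ratio was −2.32 (−2.52 to −2.14), beside −2.53 (−2.66 to −2.40) for all chosen cells. After thinning to 1500 UMIs, Isg15 was found in 60.5%, 6.06%, 80.95% and 60% of the chosen cells and in 60%, 6.38%, 71.4% and 53.3% of the core cells. The unthinned shares of chosen cells were 80%, 24.6%, 90.5% and 70.97%. The difference was not particular to cDC1: the log2 ratio of the same list was −2.63 in the Cd209a gate, −1.82 in the Ccr7 gate, −2.07 in C1q-positive macrophages and −2.13 in T cells of the same libraries, and Isg15 was found in 41.8%, 8.84%, 39.9% and 35.1% of thinned T cells. All the classes read moved together in this library, which also held few tumor cells and many stromal cells, and the part of that mix in the result was not tested.

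**Figure D5:**
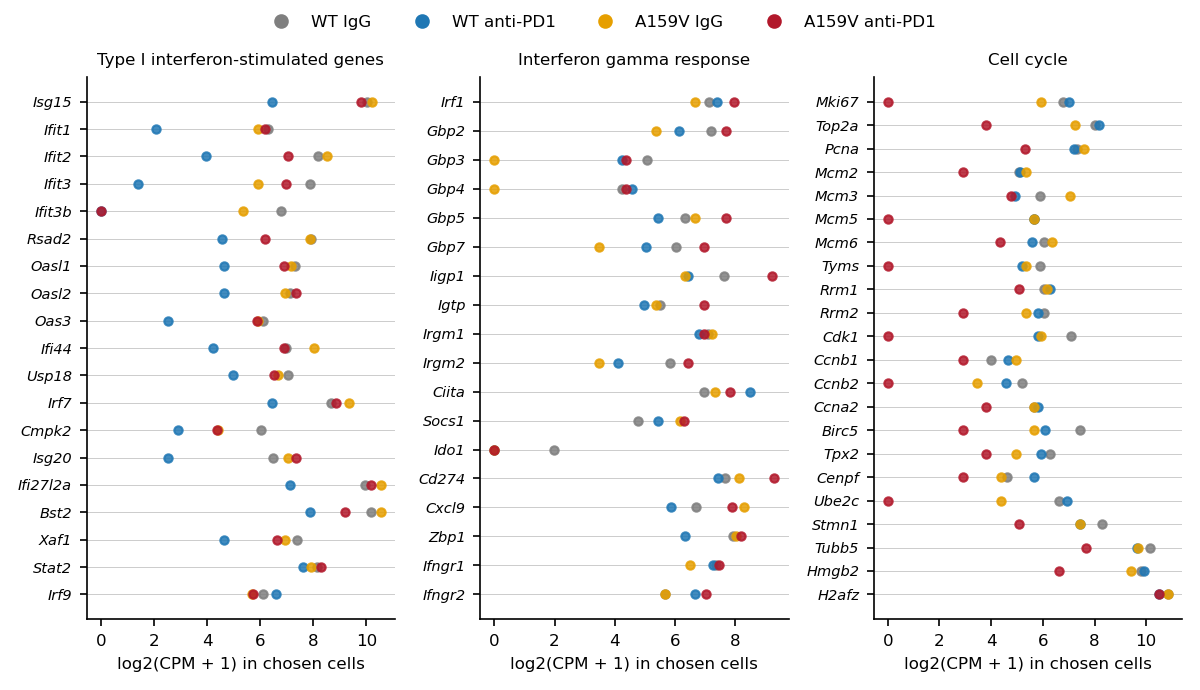
Level of genes of 3 lists in the chosen cells (horizontal axis, log2 of CPM plus 1, where 0 stands for no UMI), 1 point per library. Isg15 and Ifit2 are lowest in WT anti-PD1, at 85.3 and 14.5 CPM, Iigp1 and Cd274 are highest in A159V anti-PD1, at 599 and 632 CPM, and Mki67 and Top2a are lowest there, at 0 and 13.02 CPM.

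The 10 highest ratios for anti-PD1 over IgG in WT tumors were those of Cacnb2, Taco1, Ank1, Snx29, Hfe, Sept3, Itga1, Mycl, Zfp652 and Anpep, and Ank1 and Sept3 are also among the 10 leading genes of the cDC1-like cluster. Ank1, an ankyrin, was at 20.7, 163, 130.5 and 97.7 CPM, a log2 ratio of 2.92 (95% interval, 1.88 to 4.33), and Sept3, a septin, at 67.9, 464, 120.4 and 189 CPM, a log2 ratio of 2.75 (95% interval, 2.16 to 3.45). Mycl, a MYC family factor of dendritic cells, was at 17.7, 111, 40.1 and 52.1 CPM, and Anpep, an aminopeptidase, at 35.4, 203, 90.3 and 84.6 CPM. WT anti-PD1 was the highest library for each of these. Among core cells, Sept3 was at 141, 577, 174 and 303 CPM and Ank1 at 51.9, 203, 189 and 171 CPM. Of the 19 identity genes, 19 were higher in all chosen cells, with a median log2 ratio of 1.48. Core cells had 17 higher, and the median was 0.64. At the low end stood Rhox5, Cntn3, Shisal2b and Gm45589, with Rhox5, which MC38 cells express, at 342, 1.61, 80.3 and 6.51 CPM and with UMIs in 5, 1, 4 and 1 cells, then A330040F15Rik, Spp1, Ifi27, Ccl5, Ddx58 and Ifit2. Ddx58, the gene for the RNA sensor RIG-I, was at 145, 6.44, 70.3 and 19.5 CPM, a log2 ratio of −4.29 (95% interval, −6.42 to −3.04). The top WT IgG cell held 44.9% of the Ddx58 UMIs of that library. For Cntn3, Gm45589, Spp1, Ifi27 and Ccl5 it held 76.5, 75.5, 73.5, 63.9 and 48.8%. For Rhox5 and Shisal2b it held 44.8 and 41.9%, and for A330040F15Rik and Ifit2 19.4 and 23.2%. Cxcl10, another interferon-induced chemokine, was at 578, 82.1, 371 and 306 CPM.

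In A159V tumors, anti-PD1 treatment went with fewer cell cycle transcripts and more interferon gamma response, Il1b and checkpoint ligand transcripts in the chosen cells. For anti-PD1 over IgG in A159V tumors, 328 of 2179 genes (15.1%) were past 2-fold higher and 217 (9.96%) lower. Of 22 cell cycle genes, 21 reached 20 CPM and 21 of these were lower, 20 of them past 2-fold. At the 100 CPM minimum 6 of 7 were past 2-fold lower. In these values A159V anti-PD1 is given last. Mki67 (ENSMUSG00000031004, chr7:135689784-135716361 on the minus strand), the proliferation antigen, was at 109, 129, 60.2 and 0 CPM in 9, 16, 4 and 0 cells, and a count of 0 in A159V anti-PD1 allows up to 19.5 CPM. Top2a, the topoisomerase of dividing cells, was at 259.6, 289.8, 151 and 13.02 CPM, a log2 ratio of −3.43 (95% interval, −6.70 to −1.43). Hmgb2, a chromatin protein of cycling cells, was at 897, 956, 673 and 97.7 CPM, a log2 ratio of −2.77 (95% interval, −3.70 to −1.96). Tubb5, a tubulin, was at 1145, 791, 823 and 202 CPM, a log2 ratio of −2.02 (95% interval, −2.67 to −1.42). For all of these genes A159V anti-PD1 was the lowest of the 4 libraries, and its upper 95% bound for Hmgb2 was 161 CPM. The top cell of A159V IgG held 31.3% of the Hmgb2 UMIs of that library and 23.2% of those of Tubb5.

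Among core cells the cell cycle list was at 7533, 5708, 5503 and 2426 CPM in sum, a log2 ratio of −1.18 (−1.44 to −0.92) beside −1.23 (−1.45 to −1.02) for all chosen cells, and 19 of 19 genes were lower. With genes at 0 set to the limit that a count of 0 allows, the median log2 ratio was −1.99 in all chosen cells and −0.88 in the core cells, where 10 genes were at 0 in A159V anti-PD1. After thinning, Mki67 or Top2a was found in 13.2%, 21.2%, 23.8% and 0% of chosen cells and 33.3%, 27.7%, 28.6% and 0% of core cells. The 0% rests on 30 chosen cells, which allows up to 10%, and on 15 core cells, which allows up to 20%. In T cells, which divide in tumors, the shares were 17.8%, 6.82%, 24.1% and 17.2%, and in S100a8-positive cells, mostly neutrophils past division, 10.5%, 3.25%, 4.76% and 2.08%. In other classes of cells, the summed cell cycle level had a log2 ratio between the same libraries of 0.27 in the Cd209a gate, −0.64 in the Ccr7 gate, −0.08 in macrophages and −0.42 in T cells. These differences between cell classes were not tested.

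The interferon gamma response went the other way. Of 16 genes at 20 CPM or more, 14 were higher in A159V anti-PD1, and 8 of the 14 at 100 CPM were past 2-fold higher and none lower. The median log2 ratio was 1.11, and 0.74 in the core cells. Iigp1, an interferon-inducible GTPase, was at 198, 85.3, 80.3 and 599 CPM, a log2 ratio of 2.88 (95% interval, 1.86 to 4.15), and at 89.1, 53.4, 87.1 and 580.2 CPM in the core cells. Cd274 (ENSMUSG00000016496, chr19:29367455-29388095 on the plus strand), the gene for the PD1 ligand PD-L1, was at 204, 172, 281 and 632 CPM, a log2 ratio of 1.17 (95% interval, 0.55 to 1.83). A159V anti-PD1 was the highest library for both. Gbp2, a guanylate-binding protein, was at 145, 69.2, 40.1 and 208 CPM. Irf1, the transcription factor between the interferon gamma receptor and these genes, was at 139, 167, 100.4 and 247 CPM. The summed log2 ratio was 0.84 (0.62 to 1.07) in all chosen cells and 0.38 (0.09 to 0.67) in the core cells, beside 0.22 in the Cd209a gate, 0.86 in the Ccr7 gate, 0.56 in macrophages and 0.32 in T cells. Type I interferon-stimulated genes were lower in the same comparison, with a summed log2 ratio of −0.54 (−0.70 to −0.39) in all chosen cells and −0.73 (−0.94 to −0.51) in the core cells.

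Il1b (ENSMUSG00000027398, chr2:129364570-129371139 on the minus strand), the gene for the inflammatory cytokine IL-1β, was at 446, 282, 251 and 1471 CPM, a log2 ratio of 2.55 (95% interval, 1.95 to 3.21). It was at 505, 274, 159.7 and 1015 CPM in the core cells, so A159V anti-PD1 was the highest library in both sets. After thinning it was found in 34.2%, 30.3%, 19.05% and 56.7% of chosen cells and 20%, 25.5%, 14.3% and 46.7% of core cells, and in 4.73%, 4.37%, 10.3% and 9.47% of T cells, which do not make it. S100a8-positive cells held Il1b in 100%, 99.4%, 95.2% and 95.8%, and they numbered 40, 234, 48 and 116 in the libraries. Over the 5 neutrophil marker genes, the chosen cells held 5, 4, 11 and 1 UMIs. The part of the S100a8-positive cells in the levels of other cells was not tested.

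Costimulatory and checkpoint ligands were higher under anti-PD1 than under IgG in A159V tumors for 9 of 10 genes, with a summed level of 1472, 1164, 974 and 2070.4 CPM and a log2 ratio of 1.09 (0.76 to 1.43), or 0.75 (0.32 to 1.18) in the core cells. Cd86, a ligand of CD28, was at 623, 396, 361 and 716 CPM, and at 594, 237, 378 and 686 CPM in the core cells. Pdcd1lg2, the gene for PD-L2, was at 32.5, 48.3, 10.04 and 117 CPM and found in 4, 15, 1 and 10 cells. Cd83, which marks dendritic cell activation, was at 502, 449, 311 and 671 CPM. For Cd86 and Cd83 A159V IgG was the lowest library and A159V anti-PD1 the highest, with WT IgG next to it. Maturation genes had a median log2 ratio of 0.58, with 5 of 8 higher. Of 6 cytokine genes at the minimum 4 were lower, and the other that was higher besides Il1b was Tgfb1, at 121, 140.1, 20.1 and 71.6 CPM. Havcr2, the gene for TIM-3, a receptor that restrains cDC1, was at 251, 243, 130.5 and 143 CPM, lower in both A159V libraries.

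The largest ratios of this comparison came from single cells. Reg1, Glis3, Mmp3, Rarres2, Cpxm1, Sned1, Meg3, Dcn, Apod and Igfbp4 headed the list, and between 95.7% and 100% of the UMIs of each came from 1 cell of A159V anti-PD1. Col1a1, the main collagen of fibroblasts, was at 11.8, 1124, 10.04 and 1022 CPM, with 99.4% from 1 cell there. Among the lowest besides the cell cycle genes were Ranbp1, at 487, 184, 472 and 156 CPM, and Ran, at 628, 209, 472 and 169 CPM, which serve nuclear transport and the spindle, then Rgs10, a regulator of G protein signaling, at 115, 93.4, 351 and 97.7 CPM, and Anxa1, at 319, 179, 401 and 143 CPM, an annexin with anti-inflammatory action. A159V anti-PD1 was the lowest library for Ran, Ranbp1 and Anxa1. Snrpf, H2-Q7, Ifit2 and Sdf2l1 were also among the 10 lowest. For Ifit2, 1 cell held 58.3% of the UMIs of A159V IgG.

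The most uneven chemokine levels were carried by few cells. Cxcl2, a neutrophil chemokine, was at 11.8, 324, 944 and 879 CPM and found in 4, 29, 3 and 4 cells. A single cell gave 89.4% of its UMIs in A159V IgG, and in the core cells it was at 7.42, 57.7, 14.5 and 26.4 CPM. Ccl4, an inflammatory chemokine, was at 578, 411, 1215 and 501 CPM, with 50.4% from 1 cell in A159V IgG. Chemokine genes had median log2 ratios of −0.54, −0.82 and −0.19. Of the receptors, Ccr2, which monocytes also use, was at 150.5, 140.1, 50.2 and 202 CPM. Cxcr3, the receptor for CXCL9 and CXCL10, was found in 3, 14, 1 and 2 chosen cells and in no cell of the Cd209a or Ccr7 gates. Of the sensors, Tlr11, which in mice recognises profilin of protozoa, was at 2.95, 69.2, 50.2 and 39.1 CPM, lowest in WT IgG. Unc93b1, the chaperone of endosomal Toll-like receptors, was at 259.6, 446, 391 and 358 CPM. The sensor list had median log2 ratios of 0.61, 0.24 and −0.13.

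Genes of the Rac pathway, measured here in host cells with wild-type Rac1, were near level between the IgG libraries in all chosen cells. Rac1 was at 357, 319, 381 and 352 CPM and Rac2, the form of blood cells, at 118, 86.9, 221 and 163 CPM. Vav3, an exchange factor for Rac proteins, was at 566, 958, 442 and 1042 CPM, a log2 ratio of 1.24 (95% interval, 0.75 to 1.75) for A159V anti-PD1 over A159V IgG, and Pak1, a Rac effector kinase, at 85.6, 261, 70.3 and 111 CPM. The 14 genes had median log2 ratios of 0.00, 0.40 and 0.21. For A159V IgG over WT IgG, their summed log2 ratio was 0.01 (−0.14 to 0.16) in all chosen cells. In the core cells it was lower, at −0.23 (−0.42 to −0.05). Glycolysis genes had medians of −0.33, −0.60 and 0.42, with Gapdh at 879, 414, 642 and 632 CPM and Hif1a, a regulator of the hypoxia response, at 97.4, 184, 171 and 397 CPM. Lipid handling genes had medians of 0.46, 1.61 and 0.69 in all chosen cells but −0.81, −0.53 and −0.14 in the core cells, and Apoe, which macrophages secrete, was at 14.8, 182, 60.2 and 365 CPM in all and 7.42, 25.7, 14.5 and 0 CPM in the core.

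Genes of other cell types and broadly expressed genes were among those with the highest variance for their mean, a ratio not corrected for level. For Col3a1 the ratio was uneven, at 2.97, 147, 4.13 and 152 by library. Among 1081 genes at 100 CPM or more in every library, those with the highest variance for their mean were Gm42418, Malat1, Col3a1, Tmsb4x, Cst3, Fth1, Tcf4, S100a6, Ccl4, Ifitm1, Lyz2, Actb, S100a4, Cmss1 and Ctsb. Cst3, the gene for cystatin C, is high in cDC1 and was at 6641, 9419, 13048 and 8060.1 CPM, and at 1719, 1481, 2107 and 1709.7 CPM in the Cd209a gate. Its level in core cells was 13217, 11729.6, 17641 and 11723 CPM. Tcf4, a factor of plasmacytoid dendritic cells, was at 266, 560.3, 522 and 527 CPM in all chosen cells and 119, 91.9, 87.1 and 79.1 CPM in the core cells.

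Markers of other cell types were present in part of the chosen cells and their part in the results was not tested. The 5 stromal markers summed to 257, 3690.3, 151 and 5788 CPM, found in 8, 64, 2 and 4 cells, and to 14.8, 265, 14.5 and 26.4 CPM in the core cells. The 8 macrophage markers summed to 516, 915, 341 and 1042 CPM, the 5 plasmacytoid markers to 339, 757, 994 and 671 CPM with Siglech in 1, 2, 3 and 1 cells, and the 4 tumor cell markers to 357, 3.22, 110.4 and 19.5 CPM. T cell markers summed to 5.90, 11.3, 100.4 and 13.02 CPM with 4, 5, 3 and 4 of 6 genes at 0, and neutrophil markers to 14.8, 6.44, 110.4 and 6.51 CPM with 3, 2, 2 and 4 of 5 at 0. Cd209a and Siglech had 0 UMIs in the core cells of all 4 libraries, where a count of 0 allows up to 22.3, 6.41, 43.6 and 39.6 CPM. Leaving out chosen cells with 10 or more UMIs of Col1a1, Col1a2, Col3a1 and Dcn together left 38, 66, 20 and 30 cells. The median log2 ratio for anti-PD1 over IgG was then −3.11 for interferon-stimulated genes in WT tumors, beside −2.84 with them. For cell cycle genes in A159V tumors it was −2.32, beside −2.35 with them. Cells with fewer stromal UMIs stayed in, so these values do not test the part of stromal RNA or of the mix of cells.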

How the data were processed

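Raw integer UMI counts per gene and barcode were deposited by the authors for 4 libraries of barcodes called as cells, whose file headers name Cell Ranger 7.2.0 (the submitters' notes name 5.0.1) and the mm10 reference with intronic reads counted. The authors' removal of background RNA and doublets came after these files. Barcodes with more than 500 genes were kept, with no limit on mitochondrial counts, and doublets were predicted but not removed. The cells, gene lists and comparisons were chosen with earlier results of these data known. UMIs were summed over the chosen cells of each library (338939, 621084, 99628 and 153596), scaled to CPM and compared as log2(CPM + 1) differences. Ribosomal protein, mitochondrial, hemoglobin and antigen receptor genes, and genes over 5 times higher in another gated class of at least 30 cells, were left out of the counts of genes past 2-fold. Intervals are exact Poisson for levels, exact conditional for ratios, exact binomial (Clopper-Pearson) for shares and Katz for folds of shares. They cover counting error only, and those of levels and ratios leave out the spread between cells. Antigen-presenting cells were clustered with scanpy 1.11.5 and leidenalg 0.10.2, and other steps used Python 3.11.15, numpy 2.4.6, scipy 1.17.1 and pandas 2.3.3. Gene positions are from GENCODE M21 on GRCm38. Named genes were the 10 highest and 10 lowest ratios of each comparison with at least 30 UMIs in the higher library, the genes of the lists and the 15 most variable genes. Some listed genes are not reported here by name. No test between groups was run.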

Additional observations from a re-analysis of the deposited data

Results flagged for a closer look

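For 5 gene lists the summed level in the chosen cells differed in direction between the genotypes. It was lower in anti-PD1 than in IgG in WT tumors and higher in A159V tumors. The 95% counting intervals left out 0 in both, but they do not cover the spread between cells. Cytokines, at −0.18 and 1.64, and maturation genes, at −0.04 and 0.85, had the same signs but WT intervals that held 0. With 1 library per group the difference between the genotypes was not tested, and the WT values rest on the WT anti-PD1 library, which stands apart from the others in its mix of cells. The log2 ratio of the summed level was −0.19 in WT and 0.84 in A159V for the interferon gamma response. It was −1.22 and 0.36 for type 2 dendritic cell genes. S100a4 was most of that sum in both IgG libraries, and the median log2 ratio in WT tumors was 0.46, with 7 of 10 genes higher, so the median and the sum differ in sign there. For costimulatory and checkpoint ligands it was −0.34 and 1.09. For glycolysis genes it was −0.32 and 0.22. For immediate early and stress genes it was −0.28 and 0.38. In the core cells the corresponding pairs were 0.03 and 0.38, 1.09 and −0.43, −0.81 and 0.75, −0.45 and −0.14, and −0.44 and 0.10, so the WT-lower and A159V-higher pattern was also seen there for costimulatory ligands. For immediate early genes the A159V interval in the core cells, 0.10 (−0.17 to 0.37), held 0, and the other 3 lists did not show the pattern.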

How the results depend on the processing

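The first comparison below is that of genotypes under IgG, the second is anti-PD1 over IgG in WT tumors, and the last is the same in A159V tumors. No paired analysis was possible because each group is 1 library, and no library could be left out for the same reason. The Cd209a and Ccr7 comparisons kept to within 1.5 times their counts with gates at 2 UMIs. Alternatives by cluster, by 3 or 4 of 8 other markers, by thinning, by C1q, and without the deepest or stromal-marked cells were chosen after seeing the data. The number of cells relative to Ptprc-positive cells had folds of 0.983 by cluster and 1.15 over antigen-presenting cells, against 0.570, in the first comparison. In the second the fold was 3.24 with at least 2 Xcr1 or Clec9a UMIs, 2.98 by cluster and 3.10 for core cells. In the last it was 0.603 over antigen-presenting cells. The share of dendritic cells had folds of 1.09 by cluster in the first and 1.76 (2 UMIs), 1.72 (core) and 3.30 (clusters) in the second. Genes past 2-fold, in the 3 comparisons, were 485 higher with 396 lower, 674 higher with 458 lower and 660 higher with 618 lower at 50 CPM, 45 higher with 51 lower, 152 higher with 125 lower and 139 higher with 48 lower at 200 CPM and 1871 higher with 3733 lower, 3013 higher with 2438 lower and 2660 higher with 2397 lower with no minimum but 1 UMI. Lower genes in the first comparison were 297 with mean CPM per cell, 233 at 2 UMIs, 285 in core cells and 245 in cells with 3 of 8 markers. In the second, 229 were higher with median-of-ratios scaling and 155 lower in cells with 3 of 8 markers.

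Median log2 ratios moved most with the choice of cells. Identity genes in the first comparison were at −0.12 (2 UMIs), −0.0066 (core) and 0.28 (3 of 8). In the second they were at 0.99 (mean per cell), 0.71, 0.64 and 0.99 by the same cells and 1.24 without stromal-marked cells. In the last they were at −0.34 (median of ratios), −0.43 (doublets removed), −0.32 (3 of 8) and −0.33 without the deepest or stromal-marked cells. Interferon-stimulated genes were at −0.74 (mean per cell) and 0.49 (core) in the first, −2.38 (pseudocount of 10 CPM) and −2.55 (3 of 8) in the second, and −0.74 (core) in the last. The interferon gamma list was at 0.71 (core) in the first and 0.50 (2 UMIs), 0.041 (core) and −0.065 (3 of 8) in the second. Cell cycle genes were at −0.089 in the first and 0.16 in the second (mean per cell), −0.44 (2 UMIs) in the second, and −1.87 (pseudocount of 10 CPM) and −4.91 (core, with genes at 0) in the last. Other medians that changed sign were MHC class II in the second (−0.065, 2 UMIs), immediate early genes in the last (−0.080, 2 UMIs, and −0.023, core), chemokine receptors in the first (0.013, 2 UMIs), glycolysis in the first (0.022, 3 of 8) and last (−0.11, 2 UMIs, and −0.14, core), lipid handling in the second (−0.71, 2 UMIs, −0.53, core, and −0.58, 3 of 8) and last (−1.11, 2 UMIs, and −0.14, core), and the Rac list in the second (−0.010, mean per cell). The cause was not tested. Lower interferon-stimulated genes in the second comparison and lower cell cycle genes in the last comparison had the same direction under each of the 10 alternatives run. With 21 to 69 cells per library, genes under 19.5 CPM in A159V anti-PD1 and 30.1 CPM in A159V IgG could not be told from 0.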
